A study of Mus musculus with 6 samples.

Results

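The imprinted growth network genes examined here are H19, Igf2, Igf2r, Meg3, Dlk1, Peg3, Plagl1, Cdkn1c, Grb10 and Mest, 10 of the 51826 gene symbols counted. They were chosen by symbol as imprinted genes linked to growth and to progenitor states, and all 10 had a row in each of the 6 count files. Of these, 9 passed the filter on low counts. Dlk1, with 30 reads in all, did not.

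The libraries were RNA-seq of mammary basal cells from C57B6/N mice at postnatal day 24, with 3 GFP-positive (GFPpos) and 3 GFP-negative (GFPneg) libraries. All mice, those of the GFPneg libraries included, carried SMAcreERT2/N1ICD, a tamoxifen-inducible Cre under a smooth muscle actin promoter with an allele for the active intracellular domain of the receptor Notch1, and all received 1 dose of tamoxifen at day 21, 72 hours before isolation. Both fractions of a replicate were sorted from 1 pool of 2 to 3 mice, so that replicate numbers pair the libraries. The series title asks how Notch activation switches the fate of mammary cells. No library of labelled cells without the allele was analysed here, so that an effect of the allele and a difference between the cells that became GFP-positive cannot be told apart. Smooth muscle actin is also made by cells of the vessel wall.

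An imprinted gene is expressed mainly from the copy inherited from 1 parent, and many such genes act on fetal growth and are turned down after birth. In mouse, H19, Igf2r, Meg3, Cdkn1c and, in most tissues, Grb10 are expressed from the maternal copy, and Igf2, Dlk1, Peg3, Plagl1 and Mest from the paternal copy. The zinc finger factor encoded by Plagl1 is known in mouse to control several of the others, which is why they are described as a network. Expression from the 2 parental copies was not separated in these counts.

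Several of the genes are neighbours. H19 (chromosome 7, 142575529 to 142578143, minus strand, mm10) lies 72.6 kb from Igf2 (142650766 to 142666816, minus strand), and Cdkn1c (143458339 to 143461050, minus strand) lies 792 kb beyond Igf2. Peg3 is on the same chromosome at 6703892 to 6730431. Dlk1 (chromosome 12, 109452823 to 109463336, plus strand) and Meg3 (109541001 to 109571726, plus strand) are 77.7 kb apart. The others stand alone, Igf2r on chromosome 17 (12682406 to 12769664, minus strand), Plagl1 on 10 (13060504 to 13131694, plus strand), Grb10 on 11 (11930508 to 12038683, minus strand) and Mest on 6 (30723547 to 30748465, plus strand). H19 and Meg3 are annotated as lincRNA and the other 8 as protein coding.

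The H19 transcript is also the precursor of miR-675, whose hairpin lies within its annotated exons, and miR-483 lies between exons of Igf2. Their mature sequences (RefSeq, GRCm38.p6) are shown as the short RNAs encoded within these neighbouring transcripts. The seed, bases 2 to 8, is in capitals:
mmu-miR-675-5p: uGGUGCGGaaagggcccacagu
mmu-miR-675-3p: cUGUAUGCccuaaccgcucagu
mmu-miR-483-5p: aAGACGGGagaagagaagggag
mmu-miR-483-3p: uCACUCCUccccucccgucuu
The rows of both hairpins, Mir675 and Mir483, held 0 reads over the 6 libraries, and mature miRNAs were not measured.

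Promoter windows of 300 bases, from 250 before to 50 after a start site, were given for 8 of the 10 genes (15 windows, RefSeq, GRCm38.p6). H19 and Cdkn1c had none. The windows were searched on both strands for TGGGAA, the core bound by RBPJ, the DNA-binding partner of the Notch intracellular domain. It was found in 5 of 15 windows, of Igf2, Meg3 and Mest (33.3%), and in 25.6% of 32851 windows of all genes. The 2 Mest windows lie 3 bases apart and hold the same match. Counted by gene, 3 of 8 members had a match (37.5%), beside 28.3% of all genes with a window. Below are the windows with most matches of Igf2 and Meg3, the genes with a window that were called lower under some of the settings described further on, with the matches in capitals, those on the opposite strand as their reverse complement. The Igf2 window is chr7:142661222-142661521 on the minus strand, with matches that begin 158 and 110 bases before the start. The Meg3 window is chr12:109545148-109545447 on the plus strand, with matches that begin 247 and 233 bases before a start that lies inside the annotated gene.
Igf2: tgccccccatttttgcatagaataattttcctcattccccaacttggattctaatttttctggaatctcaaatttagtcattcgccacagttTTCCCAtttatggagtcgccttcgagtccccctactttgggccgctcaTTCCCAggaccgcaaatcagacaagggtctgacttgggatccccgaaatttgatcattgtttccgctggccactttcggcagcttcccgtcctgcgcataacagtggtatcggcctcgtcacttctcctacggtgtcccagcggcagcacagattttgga
Meg3: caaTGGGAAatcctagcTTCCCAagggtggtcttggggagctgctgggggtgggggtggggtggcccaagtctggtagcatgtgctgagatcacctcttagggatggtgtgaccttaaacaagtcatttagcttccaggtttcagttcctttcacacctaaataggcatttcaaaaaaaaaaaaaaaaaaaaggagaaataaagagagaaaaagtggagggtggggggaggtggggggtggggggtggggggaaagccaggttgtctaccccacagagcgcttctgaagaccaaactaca

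One library stands apart. GFPneg replicate 1 held 611465 gene counts over 7454 genes, against 9912610 to 16043492 counts in the other 5 libraries, and 69.2% of its counts lay in 5 abundant noncoding features. The 10 genes together had 183 reads there, and 1 read equalled 3.28 CPM (reads scaled to the effective library size), against 0.0513 to 0.0911 CPM elsewhere. Its scaling factor (TMM) was 0.501, against 1.05 to 1.22 in the other libraries, which raises its CPM values. Scaled by gene counts alone, 1 read there equals 1.64 CPM. The fold change of each tested member is therefore given with and without GFPneg replicate 1. Notch1 reads, of the allele and the endogenous gene together, were 506, 459 and 423 CPM in GFPpos libraries and 105, 177 and 267 CPM in GFPneg libraries. The basal markers Krt5, Krt14 and Trp63 were present in every library, at 976, 1015 and 157 CPM on average in GFPpos cells, against 1399, 1818 and 241 CPM in GFPneg cells. Of 12 basal markers tested, 11 had negative fold changes. Presence of these markers does not show how many cells of other types a library held. In GFPpos replicate 3 the endothelial gene Pecam1, at 981 CPM, exceeded Krt5 and Krt14, at 713 and 796 CPM.

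None of the 9 tested members was called different between the fractions. Testing 13873 genes with edgeR (quasi-likelihood, adjusted p below 0.05) gave 0 members higher and 0 lower in GFPpos cells, beside 0.0577% of all genes called higher and 0.00721% called lower. Without adjustment, p was below 0.05 for 0 members that were higher and for 1 that was lower (Igf2), beside 2.38% and 2.88% of all genes. DESeq2 called 0 members as well, beside 0.36% of all genes called higher and 0.346% called lower. Without adjustment its p was below 0.05 for 0 members that were higher and 3 that were lower (Igf2, Meg3 and Mest), beside 3.2% and 4.15% of all genes. A p that misses the threshold does not show that levels were equal, and in simulated libraries of this depth and number the same fit called some of the largest changes and none of the smaller ones. With the replicate block 0 members were called in either direction, beside 0.31% of all genes higher and 0.13% lower, and likewise 0 without GFPneg replicate 1, beside 0.412% and 0.19%. The fitted log2 fold change was positive for Igf2r and negative for the other 8, Grb10 among them with a value that turns positive when only library size is used for scaling. Its median over the members was -1.19, and over all genes tested 0.15. Bulk counts cannot tell fewer cells of a type apart from less RNA per cell.

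**Figure D1:**
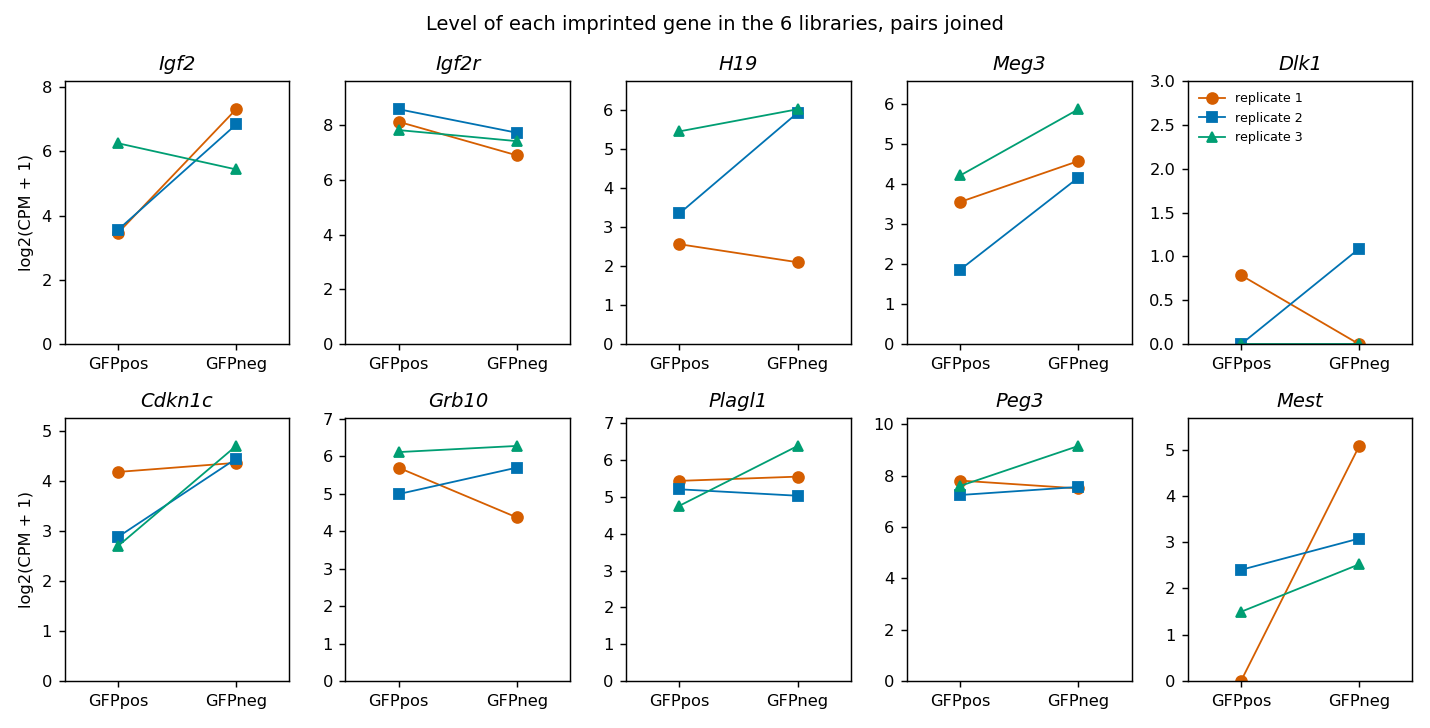
Level of each gene, log2(CPM + 1) on the vertical axis, in the GFPpos and GFPneg library of each replicate, with the pair joined by a line. Igf2r was higher in GFPpos cells in all 3 pairs, and Meg3, Cdkn1c and Mest were lower in all 3, while the lines of the other genes cross or, for Dlk1, rest on 2 libraries with reads. The direction of Cdkn1c in replicate 1 depends on the scaling of GFPneg replicate 1.

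The growth factor gene and its clearance receptor differed in opposite directions in replicates 1 and 2. Igf2, which encodes the fetal growth factor IGF2, had 9.97, 10.7 and 75.1 CPM in GFPpos replicates 1, 2 and 3, against 157, 113 and 42.3 CPM in GFPneg replicates 1, 2 and 3. GFPpos replicates 1 and 2 were thus the lowest libraries, GFPpos replicate 3 lay among the GFPneg libraries, and the groups overlapped. The GFPpos to GFPneg ratio was 0.0633 in replicate 1 (95% interval 0.0447 to 0.0908), 0.0950 in replicate 2 (0.0794 to 0.113) and 1.78 in replicate 3 (1.60 to 1.98), each interval for counting error only. The size of the ratio in replicate 1 also depends on the scaling of GFPneg replicate 1. By gene counts alone, 1 read there equals 1.64 CPM in place of 3.28 CPM, and the difference is smaller in the same direction. The log2 fold change of Igf2 was -1.67 (SE 0.75, adjusted p = 0.921), with means of 31.9 ± 37.4 CPM in GFPpos cells, against 104 ± 58.1 CPM in GFPneg cells (SD, n = 3 each). Without GFPneg replicate 1 it was -1.27 (adjusted p = 0.711). Without both libraries of replicate 3 Igf2 was called lower (log2 -3.70, adjusted p = 0.00641), where 0.0853% of all genes were called higher and 0.483% lower, in a fit of 2 libraries a group that includes GFPneg replicate 1, where 48 reads gave the 157 CPM. That fit has 2 residual degrees of freedom and takes its spread from all genes. Of the markers of other cell types, that fit called 1 of 10 fibroblast and 1 of 5 Schwann cell markers lower, and their part in the call was not tested. Of the exon bases of Igf2, 62.8% are shared with the readthrough gene Gm49394 in GENCODE M21, a symbol with no row in the count files.

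Igf2r encodes the receptor that takes IGF2 to the lysosome for breakdown. It had 277, 381 and 225 CPM in GFPpos replicates 1, 2 and 3 and 118, 210 and 170 CPM in GFPneg replicates 1, 2 and 3. Every GFPpos library lay above every GFPneg library, as in 9.53% of all genes tested. The GFPpos to GFPneg ratios were 2.35 (1.69 to 3.36), 1.82 (1.74 to 1.89) and 1.33 (1.25 to 1.40) in replicates 1, 2 and 3. The log2 fold change was 0.82 (SE 0.41, adjusted p = 0.996), and 0.65 (adjusted p = 0.542) without GFPneg replicate 1. Igf2r kept a positive value in all 17 other settings, from 0.59 to 1.03, and passed the threshold in none of them. Its antisense RNA gene Airn, transcribed from the paternal copy and needed in mouse to silence that copy of Igf2r, had 59, 51 and 118 reads in GFPpos and 0, 146 and 339 reads in GFPneg replicates 1, 2 and 3, and shares no exon bases with it.

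The long noncoding RNA H19, which lies beside Igf2 and shares enhancers with it, had 4.89, 9.18 and 42.6 CPM in GFPpos replicates 1, 2 and 3, against 3.28, 59.8 and 63.6 CPM in GFPneg replicates 1, 2 and 3. The value of GFPneg replicate 1 is 1 read, with an interval of 0.0830 to 18.3 CPM, so that replicate 1 gives no usable difference. In replicates 2 and 3 H19 was lower in GFPpos cells, with ratios of 0.154 (0.126 to 0.186) and 0.670 (0.605 to 0.742). Its log2 fold change was -1.23 (SE 0.89, adjusted p = 1.00), and -1.68 (adjusted p = 0.450) without GFPneg replicate 1. Without GFPpos replicate 3 it was -2.64 (adjusted p = 0.889). With the replicate block and without replicate 1, a fit of 2 pairs, H19 was called lower (log2 -1.60, SE 0.43, adjusted p = 0.00794), where 2.52% of all genes were called higher and 1.41% lower. That fit has 1 residual degree of freedom and takes its spread from all genes.

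Igf2 and H19 were both highest in replicate 3 among the GFPpos libraries. There were 0.491, 0.855 and 0.567 H19 reads per Igf2 read in GFPpos replicates 1, 2 and 3, against 0.0208, 0.529 and 1.50 in GFPneg replicates 1, 2 and 3. The GFPpos libraries thus differed from each other less in this ratio than in either gene. The ratio of GFPneg replicate 1 rests on 1 H19 read and 48 Igf2 reads. The same GFPpos library had the highest level of vessel markers. The summed level of 14 endothelial markers was 1604, 1406 and 4032 CPM in GFPpos and 3046, 1397 and 884 CPM in GFPneg replicates 1, 2 and 3, and that of 10 pericyte markers was 466, 309 and 876 CPM in GFPpos and 59.0, 170 and 224 CPM in GFPneg replicates 1, 2 and 3. All 14 endothelial and 7 pericyte markers were tested, with 0 called in the main fit, 8 and 6 positive fold changes, and no marker at 0 in all libraries of a group, though GFPneg replicate 1 had no read of 8 pericyte markers, Rgs5 and Cspg4 among them. Without adjustment, p in that fit was below 0.05 for 6 of the 7 pericyte markers, all higher, beside 2.38% of all genes, and for 0 endothelial markers. Of the defining endothelial genes, Pecam1 had 367, 324 and 981 CPM in GFPpos and 718, 242 and 176 CPM in GFPneg replicates 1, 2 and 3, and Cdh5 had 260, 205 and 644 CPM in GFPpos and 249, 177 and 145 CPM in GFPneg replicates 1, 2 and 3. The part of these cells in the levels of Igf2 and H19 was not tested.

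**Figure D2:**
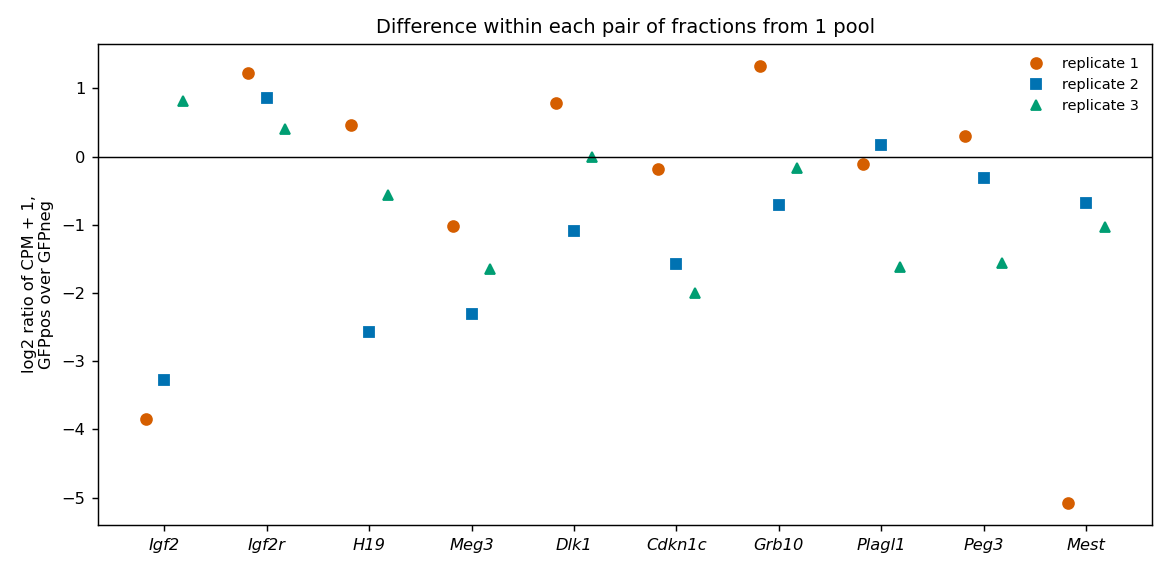
Difference within each pair, as the log2 ratio of CPM + 1 in GFPpos over GFPneg cells on the vertical axis, for each gene and replicate. Igf2 stands at -3.85, -3.28 and 0.81 in replicates 1, 2 and 3, Igf2r lies above 0 and Meg3, Cdkn1c and Mest below 0 in each pair. For Cdkn1c in replicate 1 this depends on the scaling of GFPneg replicate 1.

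Meg3, a maternally expressed long noncoding RNA linked to growth arrest, was lower in GFPpos cells of all 3 pairs. It had 10.8, 2.65 and 17.6 CPM in GFPpos replicates 1, 2 and 3, against 23.0, 17.0 and 57.8 CPM in GFPneg replicates 1, 2 and 3. Only the GFPpos library of replicate 3 and the GFPneg library of replicate 2 overlapped, at 17.6 and 17.0 CPM. The ratios were 0.470 (0.221 to 1.19), 0.156 (0.106 to 0.222) and 0.306 (0.267 to 0.349), and that of replicate 1 rests on 7 GFPneg reads. The log2 fold change was -1.68 (SE 0.83, adjusted p = 0.989), and -1.82 (adjusted p = 0.421) without GFPneg replicate 1. Meg3 was called lower with the replicate block and without replicate 1 (log2 -2.15, SE 0.54, adjusted p = 0.00368), in the fit of 2 pairs that also called H19. Rian, the maternally expressed noncoding RNA gene that follows Meg3 in the same cluster, was called lower in that fit too (log2 -3.22, SE 0.76, adjusted p = 0.00134), with 8.43, 1.01 and 4.62 CPM in GFPpos and 0, 13.1 and 33.3 CPM in GFPneg replicates 1, 2 and 3. Markers of other cell types were called in that fit as well. They were 6 of 14 endothelial, 4 of 8 pericyte and 2 of 14 luminal markers tested on the higher side, and 2 of 11 fibroblast, 3 of 6 Schwann cell, 1 of 9 adipocyte and 4 of 12 basal markers on the lower side. Their part in the calls of Meg3 and H19 was not tested.

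Dlk1, the paternally expressed neighbour of Meg3, encodes a membrane protein related to the Notch ligands that lacks their receptor-binding DSL domain, and it marks preadipocytes and fetal progenitors. It was close to absent. There were 8, 0 and 0 reads in GFPpos and 0, 22 and 0 reads in GFPneg replicates 1, 2 and 3, or 0.725 CPM in GFPpos replicate 1 and 1.13 CPM in GFPneg replicate 2. In replicate 2 Dlk1 was at least 3.03-fold lower in GFPpos cells, taking 3 reads as the limit for the library at 0 and the lower end of the 95% interval of the GFPneg level, 0.708 CPM. A count of 0 allows up to 0.233 CPM in GFPpos replicate 2, 0.156 CPM in GFPpos replicate 3 and 0.273 CPM in GFPneg replicate 3, and up to 9.84 CPM in GFPneg replicate 1, which therefore could not show a level like those of the other libraries. Fitted with no filter on low counts, Dlk1 had an adjusted p of 0.948.

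Cdkn1c encodes p57, an inhibitor of cyclin-dependent kinases that restrains growth. Its level was 17.2, 6.38 and 5.50 CPM in GFPpos replicates 1, 2 and 3, against 19.7, 20.9 and 25.1 CPM in GFPneg replicates 1, 2 and 3. Every GFPpos library lay below every GFPneg library, as in 3.63% of all genes tested. No gene without a read in GFPneg replicate 1 can enter that share. The 3 GFPneg values were close to each other. That of GFPneg replicate 1 rests on 6 reads (interval 7.22 to 42.8 CPM) and on the scaling of that library. Scaled by gene counts alone, 1 read equals 1.64 CPM there and 0.0948 CPM in GFPpos replicate 1, which had 190 Cdkn1c reads. On that scale the direction in replicate 1 turns and the groups overlap. The ratios were 0.875 (0.395 to 2.41) in replicate 1, where the GFPneg value is 6 reads, 0.305 (0.238 to 0.388) in replicate 2 and 0.219 (0.173 to 0.275) in replicate 3. The means were 9.70 ± 6.52 CPM in GFPpos cells, against 21.9 ± 2.87 CPM in GFPneg cells (SD, n = 3 each). Cdkn1c had a log2 fold change of -1.19 (SE 0.79, adjusted p = 1.00), of -1.23 (adjusted p = 0.594) without GFPneg replicate 1, and of -1.93 (adjusted p = 0.0897) with the replicate block and without replicate 1. In GENCODE M21 30.7% of its exon bases lie opposite the antisense gene Gm44732, which had 13 reads, all in GFPneg replicate 2.

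Grb10 encodes an adaptor protein that damps signalling of the insulin and IGF1 receptors. It showed no common direction over the 3 pairs, with 50.9, 30.9 and 68.4 CPM in GFPpos replicates 1, 2 and 3 and 19.7, 51.1 and 76.8 CPM in GFPneg replicates 1, 2 and 3. The ratio was 2.59 (1.18 to 7.08) in replicate 1, where the GFPneg value is 6 reads. In replicates 2 and 3 Grb10 was lower in GFPpos cells, at 0.605 (0.537 to 0.680) and 0.891 (0.816 to 0.972). The group means nearly coincided, at 50.1 ± 18.8 CPM in GFPpos cells, against 49.2 ± 28.6 CPM in GFPneg cells (SD, n = 3 each). Without GFPneg replicate 1 the GFPneg mean was 63.9 CPM. The log2 fold change of -0.03 (SE 0.58, adjusted p = 1.00) was smaller than its error, and it was -0.33 (adjusted p = 0.923) without GFPneg replicate 1.

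The paternally expressed zinc finger genes Plagl1 and Peg3 had their largest difference in replicate 3. Plagl1, which encodes a factor known to arrest the cell cycle, had 42.3, 35.9 and 26.1 CPM in GFPpos replicates 1, 2 and 3, against 45.9, 31.7 and 82.6 CPM in GFPneg replicates 1, 2 and 3. Peg3 had 223, 151 and 193 CPM in GFPpos replicates 1, 2 and 3, against 180, 188 and 571 CPM in GFPneg replicates 1, 2 and 3. In both genes GFPneg replicate 3 stood above all other libraries, and the remaining 5 were mixed. The GFPpos to GFPneg ratio in replicate 3 was 0.316 (0.283 to 0.353) for Plagl1 and 0.339 (0.325 to 0.353) for Peg3, and in replicate 2 it was 1.13 (1.00 to 1.28) and 0.803 (0.759 to 0.848). Plagl1 had a log2 fold change of -0.63 (SE 0.57, adjusted p = 1.00) and Peg3 one of -0.74 (SE 0.47, adjusted p = 1.00), and without GFPneg replicate 3 the value of Peg3 was 0.039 and that of Plagl1 -0.12. Without GFPneg replicate 1 the values were -0.69 (adjusted p = 0.733) for Plagl1 and -0.98 (adjusted p = 0.434) for Peg3. GFPneg replicate 3 also had the highest summed level of 14 fibroblast markers, with 1014, 937 and 1341 CPM in GFPpos and 1328, 1995 and 2925 CPM in GFPneg replicates 1, 2 and 3. Of those markers 10 were tested, with 0 called in the main fit and 8 fold changes negative, Lum, Mfap5 and Pi16 had 0 reads in all GFPpos libraries, and Lum and Mfap5 in all GFPneg libraries. Without adjustment, p in that fit was below 0.05 for 4 of the 10, all lower, beside 2.88% of all genes. The defining genes Col1a1 (22.2, 4.44 and 33.2 CPM in GFPpos and 256, 15.3 and 51.7 CPM in GFPneg replicates 1, 2 and 3) and Pdgfra (5.80, 19.1 and 2.23 CPM in GFPpos and 13.1, 14.8 and 20.2 CPM in GFPneg replicates 1, 2 and 3) were highest in different libraries, GFPneg replicate 1 and GFPneg replicate 3. A further defining gene, Dcn, had 3.26, 1.63 and 0 CPM in GFPpos and 0, 60.9 and 7.84 CPM in GFPneg replicates 1, 2 and 3, and was highest in GFPneg replicate 2 (log2 -3.93, adjusted p = 0.738). The part of these cells in the levels of Plagl1 and Peg3 was not tested.

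Mest, which encodes a hydrolase-like protein of the endoplasmic reticulum, had the fewest reads of the 9, and its fitted value with all 6 libraries rests largely on GFPneg replicate 1. There were 0, 55 and 35 reads in GFPpos and 10, 145 and 52 reads in GFPneg replicates 1, 2 and 3. On the CPM scale these were 0, 4.28 and 1.82 in GFPpos and 32.8, 7.44 and 4.74 in GFPneg replicates 1, 2 and 3, so that the groups did not overlap, as in the 3.63% of all genes given above for Cdkn1c. The ratio was 0.575 (0.414 to 0.789) in replicate 2 and 0.383 (0.242 to 0.600) in replicate 3. In replicate 1 no ratio could be formed, with 0 GFPpos and 10 GFPneg reads, and the 10 reads give an interval of 15.7 to 60.3 CPM. The log2 fold change was -2.70 (SE 1.41, adjusted p = 1.00), -1.56 (adjusted p = 0.891) without GFPneg replicate 1 and -0.98 (adjusted p = 0.959) without both libraries of replicate 1. Copg2, on the opposite strand, overlaps 23.1% of the exon bases of Mest, so that reads there are uncertain.

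**Figure D3:**
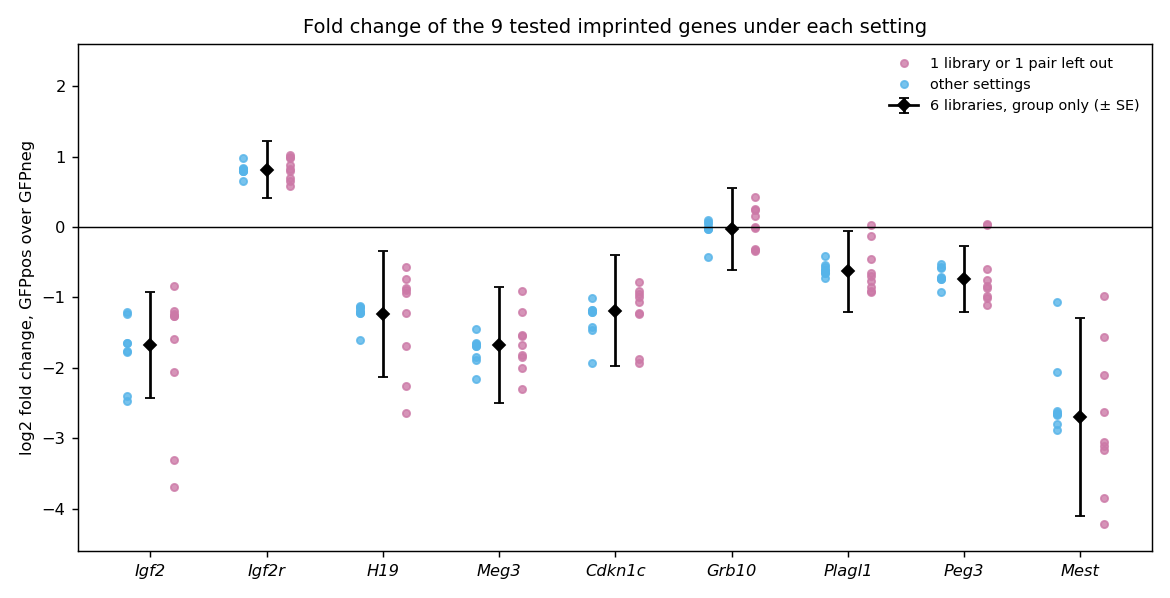
Log2 fold change of the 9 tested genes, GFPpos over GFPneg, on the vertical axis. Diamonds with bars give the value and SE from all 6 libraries, and points the values in 17 other settings. Igf2r stays between 0.59 and 1.03, Igf2 spans -3.70 to -0.84 and Grb10 lies on both sides of 0.

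The counts over pairs read as follows. Over the 3 pairs, 3 members (Meg3, Cdkn1c and Mest) were lower in GFPpos cells each time, against 8.07% of all genes tested, and 1 (Igf2r) was higher each time, against 21.5%. Without overlap of the 3 and 3 libraries, Cdkn1c and Mest were below, against 3.63% of all genes tested, and Igf2r was above, against 9.53%. A gene with no read in GFPneg replicate 1 can never be lower in that pair or below without overlap. The low depth of that library thus reduces the 8.07% and 3.63%, and tends to raise the 21.5% and 9.53%. In replicate 1, 9903 of the 13873 genes tested were higher in GFPpos cells and 3405 lower. In replicate 1 the direction of Meg3 and Cdkn1c rests on 7 and 6 GFPneg reads and on the scaling of that library. Scaled by gene counts alone, Cdkn1c is higher in GFPpos replicate 1 and overlaps, and Meg3 is nearly level in that pair. Leaving out GFPneg replicate 1, H19, Cdkn1c and Mest lay below both other GFPneg libraries, against 13.6% of all genes, and Igf2r above them, against 12.6%. The median log2 ratio of the members was 0.10, -0.90 and -0.80 in replicates 1, 2 and 3, beside 1.34, -0.03 and 0.05 for all genes tested. The high value of all genes in replicate 1 goes with the low depth of GFPneg replicate 1, in which many genes had no read. Summed over the 10 genes, the level was 637, 632 and 655 CPM in GFPpos and 600, 700 and 1093 CPM in GFPneg replicates 1, 2 and 3. The maternally expressed members summed to 361, 431 and 359 CPM in GFPpos and 184, 359 and 393 CPM in GFPneg replicates 1, 2 and 3, and the paternally expressed members to 276, 202 and 296 CPM in GFPpos and 416, 341 and 700 CPM in GFPneg replicates 1, 2 and 3. Igf2r was the largest part of the maternal sum and Peg3 of the paternal sum in each of the 6 libraries.

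Per length, Igf2r and Peg3 had the highest means in GFPpos cells, and Peg3, Igf2 and Igf2r in GFPneg cells. In CPM per kilobase of merged exons, the mean level of Igf2r was 31.6 in GFPpos and 17.8 in GFPneg cells, and that of Peg3 was 14.2 in GFPpos and 23.5 in GFPneg cells. Igf2r was the highest member in every GFPpos library (24.1 to 41.0) and did not overlap Peg3 (11.3 to 16.7) there. In GFPneg libraries Igf2r (12.7 to 22.6) and Peg3 (13.5 to 42.8) overlapped. H19, Igf2, Grb10, Cdkn1c and Plagl1 followed at means of 7.68, 5.58, 5.51, 4.76 and 4.45 in GFPpos cells and 17.2, 18.2, 5.41, 10.7 and 6.83 in GFPneg cells, and neighbours in this order overlapped in the GFPpos libraries, Peg3 and H19 (up to 17.3) included. In GFPneg cells the means of Igf2 and H19 lay close to that of Igf2r. Meg3, Mest and Dlk1 had the lowest means in both fractions, at 0.573, 0.515 and 0.0427 in GFPpos and 1.80, 3.80 and 0.0665 in GFPneg cells. The place of Meg3 depends on its merged exon length of 18.1 kb, the longest of the 10. In CPM its means, 10.4 in GFPpos and 32.6 in GFPneg cells, lay above those of Cdkn1c, 9.70 and 21.9.

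Other imprinted genes were spread on both sides of 0. Of 51 listed, 33 were tested, of which 15 had positive and 18 negative fold changes (median log2 -0.06, against 0.15 for all genes), with 0 called in either direction and 1 lower at an unadjusted p below 0.05. That gene was Zdbf2, a paternally expressed zinc finger gene, with 40.6, 21.2 and 12.1 CPM in GFPpos and 134, 30.2 and 76.9 CPM in GFPneg replicates 1, 2 and 3 (log2 -1.67, SE 0.65, adjusted p = 0.839). Zdbf2 was called lower with the replicate block and without replicate 1 (log2 -1.57, SE 0.47, adjusted p = 0.0244), where 1.41% of all genes were called lower. Asb4, which encodes a subunit of a ubiquitin ligase, was the one of the named genes of this list with a positive value, at 9.97, 13.2 and 9.34 CPM in GFPpos and 0, 4.21 and 1.82 CPM in GFPneg replicates 1, 2 and 3 (log2 2.07, SE 1.05, adjusted p = 1.00). Every GFPpos library lay above the GFPneg libraries in Asb4, as in 9.53% of all genes tested. Nap1l4, a histone chaperone gene near Cdkn1c, had a mean of 44.2 ± 7.92 CPM in GFPpos cells, against 88.8 ± 34.2 CPM in GFPneg cells (SD, n = 3 each, adjusted p = 1.00).

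**Figure D4:**
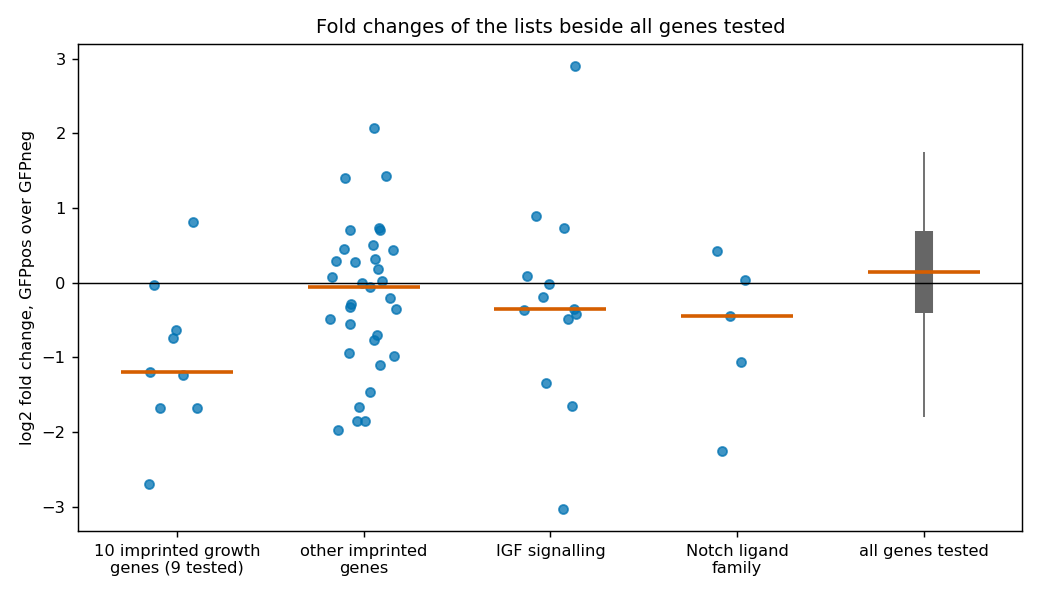
Log2 fold change, GFPpos over GFPneg, on the vertical axis for the tested members, the other imprinted genes, IGF signalling genes and the Notch ligand family (points, with the median as a line), and for all 13873 genes tested (bar from the 25th to the 75th percentile, line from the 5th to the 95th). The medians are -1.19, -0.06, -0.36, -0.45 and 0.15.

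Among the genes that act with Igf2, Igf2r and Grb10, the binding protein gene Igfbp5 had the smallest p. Of 14 IGF signalling genes 13 were tested, 4 with positive and 9 with negative fold changes (median log2 -0.36), and 0 were called. Igfbp5 had 1370, 1324 and 1088 CPM in GFPpos and 1361, 4013 and 4163 CPM in GFPneg replicates 1, 2 and 3, so that the pair of replicate 1 was nearly level while GFPpos replicates 2 and 3 lay far below their partners. The level pair depends on the scaling of GFPneg replicate 1. By gene counts alone, 1 read there equals 1.64 CPM in place of 3.28 CPM, and Igfbp5 is higher in GFPpos replicate 1. The fitted log2 value was -1.34 (SE 0.43, adjusted p = 0.662), and without GFPneg replicate 1 Igfbp5 was called lower (log2 -1.68, SE 0.27, adjusted p = 0.0131), where 0.19% of all genes were. With no filter on low counts it was called lower too (adjusted p = 0.0226), and with the replicate block and without replicate 1 (adjusted p = 0.000190). That last fit also called Igfbp6 lower (adjusted p = 0.00232) and Igfbp7 higher (adjusted p = 0.0124), beside 1.41% of all genes lower and 2.52% higher. Igf2bp3, which encodes an RNA-binding protein of Igf2 and other transcripts, had 2.90, 0.311 and 11.3 CPM in GFPpos and 0, 1.03 and 0.364 CPM in GFPneg replicates 1, 2 and 3 (log2 2.90, SE 1.64, adjusted p = 1.00). Igfbp3, which encodes the main carrier of IGFs in serum, also had a positive value, at 646, 597 and 226 CPM in GFPpos and 138, 412 and 233 CPM in GFPneg replicates 1, 2 and 3 (log2 0.89, SE 0.48, adjusted p = 1.00). It was higher in GFPpos cells in replicates 1 and 2 and nearly level in replicate 3.

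Among the relatives of Dlk1, 5 of 6 were tested and 0 called (2 positive, 3 negative, median log2 -0.45). The Notch ligand gene Jag2 had 92.8, 84.8 and 97.0 CPM in GFPpos and 131, 218 and 218 CPM in GFPneg replicates 1, 2 and 3 (log2 -1.06, SE 0.41, adjusted p = 0.804). Its groups did not overlap, with GFPpos below GFPneg, as in 3.63% of all genes tested. Jag2 was called lower with the replicate block and without replicate 1 (adjusted p = 0.00586), where 1.41% of all genes were called lower. Dlk2, the closest relative of Dlk1, had a mean of 1.06 ± 1.09 CPM in GFPpos cells, against 4.53 ± 6.77 CPM in GFPneg cells (SD, n = 3 each, adjusted p = 1.00). The ligand genes Dll1 and Dll4 differed by less than their errors. Dll1 averaged 142 ± 32.2 CPM in GFPpos cells and 191 ± 133 CPM in GFPneg cells (log2 -0.45, SE 0.51), and Dll4 averaged 60.0 ± 39.2 CPM in GFPpos cells and 46.8 ± 26.1 CPM in GFPneg cells (log2 0.43, SE 0.61, SD over 3 libraries each, adjusted p = 1.00 for both).

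**Figure D5:**
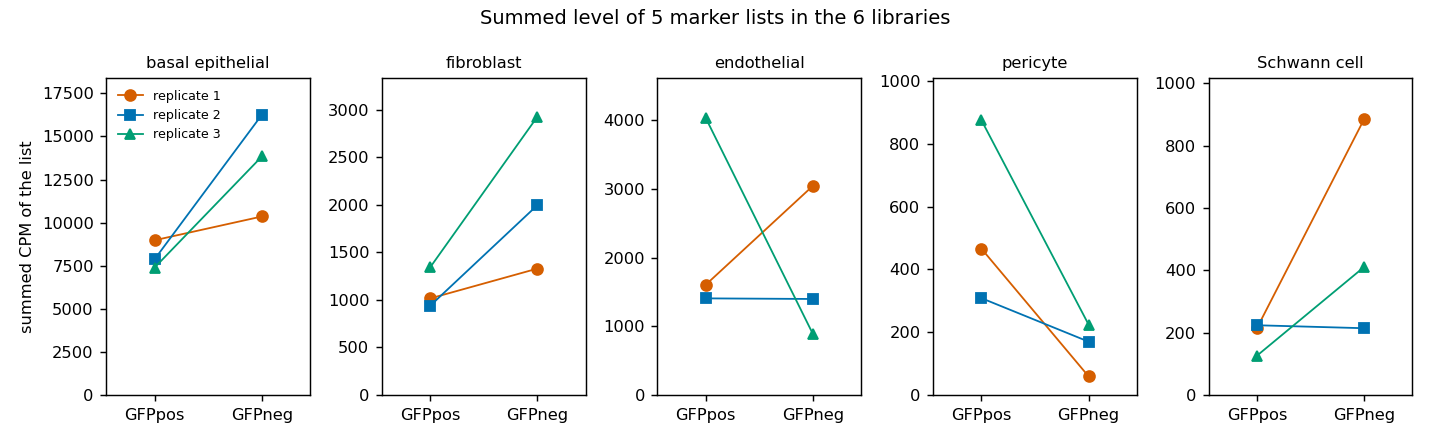
Summed CPM of 5 marker lists on the vertical axis, in the GFPpos and GFPneg library of each replicate. The fibroblast sum is highest in GFPneg replicate 3 (2925 CPM) and the endothelial sum in GFPpos replicate 3 (4032 CPM), while the basal sum is lower in GFPpos cells in each pair.

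Summed marker levels varied between the libraries, with 0 markers of the lists below called in the main fit. DESeq2 called 1 of 5 Schwann cell markers lower and 1 of 14 luminal markers higher, beside 0.346% and 0.36% of all genes. With the replicate block these were 2 and 1 in edgeR and in DESeq2, beside 0.13% and 0.31% of all genes in edgeR. DESeq2 with the block also called 1 of 7 pericyte markers higher, where 91 of 13873 genes were. With no low count filter, 3 of 8 Schwann cell, 3 of 12 fibroblast and 1 of 12 basal markers were lower. On the higher side were 2 of 14 luminal and 1 of 10 pericyte markers, beside 236 genes lower and 65 higher of 24729. Without GFPneg replicate 1, 1 of 11 fibroblast, 1 of 6 Schwann cell and 2 of 12 basal markers were called lower. That fit called 1 of 14 luminal markers higher, beside 0.19% of all genes lower and 0.412% higher. The sum of 12 basal epithelial markers was 8976, 7873 and 7387 CPM in GFPpos and 10354, 16253 and 13837 CPM in GFPneg replicates 1, 2 and 3. Schwann cell markers (8 listed, 5 tested, 0 called) summed to 214, 224 and 126 CPM in GFPpos and 885, 214 and 411 CPM in GFPneg replicates 1, 2 and 3. The preadipocyte and adipocyte markers, a cell type in which Dlk1 is known, summed to 202, 172 and 474 CPM in GFPpos and 482, 341 and 296 CPM in GFPneg replicates 1, 2 and 3 (10 listed, 9 tested, 0 called), and Adipoq had 0 reads in all GFPpos libraries. Skeletal muscle markers, of a tissue that expresses H19 and Igf2, stayed at or below 9.65 CPM in sum, with Ckm, Myod1, Myog and Myf5 at 0 reads throughout. Immune markers summed to at most 34.3 CPM, and luminal markers to 1086, 936 and 692 CPM in GFPpos and 321, 601 and 685 CPM in GFPneg replicates 1, 2 and 3. Without adjustment, p in the main fit was below 0.05 for 5 of 12 basal, 2 of 5 Schwann cell and 1 of 9 adipocyte markers, all lower. On the higher side it was for 3 of 14 luminal markers. Of all genes, 2.88% were lower and 2.38% higher by that rule. The part of these cells in the differences of the members was not tested.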

How the data were processed

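RNA-seq counts of 6 libraries were used, with groups and replicate numbers taken from the sample titles. The files deposited by the authors hold raw counts for 51826 gene symbols, followed by 5 summary rows that were left out. The submitters' processing notes name FastQC, cutadapt, TopHat2, HTSeq and the build mm10. How reads on overlapping genes, on either strand or at several positions were counted is not given in the sources used here. Genes that overlap or share sequence are uncertain for that reason.

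The main test was edgeR 4.0.16 (R 4.3.3) with TMM factors, filterByExpr, a quasi-likelihood fit with only the fraction as a term, and Benjamini-Hochberg adjustment over 13873 genes at 0.05. CPM values use the effective library size. Positions and merged exon lengths came from GENCODE M21, and promoter and miRNA sequences from RefSeq. Exact 95% intervals and the limit of 3 reads for a gene at 0 cover counting error only. As mice were pooled, p-values concern pools and not single mice, and they also draw on the spread of all genes. The main fit had 4 residual degrees of freedom per gene and 11.3 from all genes. The spread was taken wholly from all genes with the replicate block, with or without replicate 1, with no filter, and without replicate 3.

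Replicate numbers pair the libraries, since the design text says the 2 fractions came from 1 pool. Deviations from the group mean correlated within pairs at -0.036, 0.122 and -0.0013 in replicates 1, 2 and 3. The other settings were the replicate block, DESeq2 1.42.0 with and without it, other scaling, no filter, no abundant noncoding features, and the removal of each library or pair. The fits were checked on simulated data, where the main and the blocked fit called part of the largest changes, none of the smaller ones and no unchanged gene.

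The 10 genes, the other lists and the settings were chosen with earlier results of these data known. Named are all 10 members, the 4 genes with the smallest p in each of 3 further lists, any gene of these lists called with or without the block, and 11 marker genes. List genes called only under other settings are named as well, chosen after their values were seen.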

Additional observations from a re-analysis of the deposited data

How the results depend on the processing

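Members called stayed at 0 in both directions except in 2 of 17 other settings. Leaving out single libraries or pairs gave 0 to 1 members lower (Igf2, without both libraries of replicate 3), and the replicate block without replicate 1 gave 2 members lower (H19 and Meg3) and 2 other imprinted genes lower (Rian and Zdbf2). The replicate block with all 3 pairs changed no call of a member. Over all genes, 8 were higher and 1 lower in GFPpos cells, and these counts moved to 43 and 18 with the replicate block, 50 and 48 with DESeq2, 91 and 61 in DESeq2 when blocked by replicate, 65 and 236 with no low count filter, and 386 and 216 with the replicate block without replicate 1. With library size only, 5 were higher, and the median log2 fold change of all genes was 0.31 in place of 0.15. Fits that left out a library or pair called 2 to 63 genes higher and 1 to 68 lower. Grb10 turned positive with the replicate block (0.072, or 0.040 in DESeq2) and with library size only (0.10), and ranged from -0.34 to 0.42 over the fits without a library or pair. Peg3 ranged from -1.11 to 0.039 and Plagl1 from -0.93 to 0.035 there, Peg3 positive without GFPneg replicate 3 or that pair and Plagl1 without that pair. The cause was not tested. Igf2, H19, Meg3, Cdkn1c and Mest stayed negative and Igf2r positive in all 17. A pseudocount of 0.5 or 5 CPM moved 1 of 60 pair ratios by more than the spread between pairs (Meg3 in replicate 2, -1.52 in place of -2.30). Depth limits GFPneg replicate 1, where 3 reads equal 9.84 CPM, above the level of Dlk1 in every other library.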
